A study of Mus musculus with 6 samples.

Results

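The carbonic anhydrases described here are 7 mouse genes, Car1, Car2, Car4, Car8, Car9, Car12 and Car13, taken by name from the 24190 genes of the count table after its Ensembl identifiers were matched to GENCODE symbols. The remaining 9 carbonic anhydrase genes of the table served as their family background. All samples were cultures of MTO54, a mouse tumor organoid (MTO) line derived from colorectal cancer, whose label gives its genotype as AKP. Because all 6 cultures came from 1 line, the samples share its alleles and stand for 1 genotype, in culture without the other cells of a tumor. The 3 control cultures were kept in complete stem cell medium. The 3 Folfiri cultures received SN38 at 100 nM and 5FU at 50 μg/μl (the labels' unit), starting 2 days after seeding and lasting 2 days. A legend in the study gives a longer treatment. 5FU is a pyrimidine analog that blocks thymidylate synthesis, and SN38 is the active form of irinotecan, a topoisomerase I inhibitor. The study describes the samples of each condition as biological replicates.

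Carbonic anhydrases catalyse the reversible hydration of carbon dioxide to bicarbonate and a proton, and most of them hold a catalytic zinc ion bound by histidines. Car9 and Car12 are anchored in the plasma membrane with the catalytic domain outside the cell. Car9 is a textbook target of the hypoxia-inducible factor HIF, and Car12 is also known to be hypoxia-inducible, so these genes were taken as the hypoxia-linked members. Differentiated colonocytes are known for cytosolic Car1 and Car2 and for Car4 on the apical membrane, where carbonic anhydrase activity serves bicarbonate exchange, and these were taken as the colonocyte-linked members. Car8 is a related protein without carbonic anhydrase activity, and Car13 is cytosolic.

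The coding sequence of each member shows the shared active site and the exception in Car8. These stretches are read on the coding strand from GENCODE transcripts on GRCm38, each lying inside a coding exon. Capitals mark the codons aligned with the first pair of zinc-binding histidine codons of Car2; CAT and CAC both encode histidine.
Car9 (chr4:43508958-43508981, + strand, exon 4): cagttgCATctaCACtggggaact
Car12 (chr9:66747641-66747664, + strand, exon 4): cagctgCACttgCACtgggggaac
Car1 (chr3:14776272-14776295, - strand, exon 3): cagttcCATtttCACtggggcaac
Car2 (chr3:14895063-14895086, + strand, exon 3): cagtttCACtttCACtggggctca
Car4 (chr11:84964161-84964184, + strand, exon 4): cagttgCACctgCACtggtcaaat
Car13 (chr3:14650700-14650723, + strand, exon 3): cagttcCATttgCACtgggggtca
Car8 (chr4:8221604-8221627, - strand, exon 3): gaagttAGAtttCACtggggaaga
Both capitalised codons encode histidine in 6 of the 7 members. In Car8 the first is AGA, an arginine codon.

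The members lie on 4 chromosomes (positions of GENCODE on GRCm38). Car13 (ENSMUSG00000027555), Car1 (ENSMUSG00000027556) and Car2 (ENSMUSG00000027562) belong to a cluster of carbonic anhydrase genes on chromosome 3 that also holds Car3 and spans 259 kilobases, with Car13 from 14641727 to 14663002 on the + strand, Car1 from 14766216 to 14808368 on the - strand and Car2 from 14886273 to 14900770 on the + strand. Car8 (ENSMUSG00000041261) lies on chromosome 4 from 8143362 to 8239041 on the - strand, far from Car9 (ENSMUSG00000028463), on the same chromosome from 43506966 to 43513729 on the + strand. Car12 (ENSMUSG00000032373) lies on chromosome 9 from 66713686 to 66766845 and Car4 (ENSMUSG00000000805) on chromosome 11 from 84957786 to 84966044, both on the + strand. Among members, the longest stretch of identical transcript sequence was 30 bases, between Car2 and Car13, and the closest coding sequences were those of Car1 and Car13, which encode the same amino acid at 64.0% of aligned codons.

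The libraries held 22103591 to 30098210 counts on genes. Of the 24190 genes, 14692 passed edgeR's filter on low counts and were tested, and 11623 of these, 79.1%, were called, meaning that they passed a Benjamini-Hochberg adjusted p of 0.05 in edgeR's quasi-likelihood test. Calls were split into 40.3% of tested genes higher and 38.8% lower after Folfiri, so most tested genes were called in these data. Levels are library-size-scaled counts (CPM) normalized by the TMM method. With total counts as the only scaling, the log2 fold change at the median of tested genes moved from 0.02 to 0.30 and the share of calls that were higher from 51.0% to 63.3%. All 7 epithelial markers were expressed, with a summed level of 5797 to 6770 CPM in control and 4660 to 4837 CPM in Folfiri samples. Of these 5 fell, among them Cdx2 at a log2 fold change of -1.53 and Epcam at -0.94, and Cdh1 rose by 0.21 on that scale. Among markers of other cell types, the summed level of goblet cell genes was 90.2 to 94.3 CPM in control and 24.1 to 26.6 CPM in Folfiri samples, with Tff3 and Spdef at 3 counts or fewer. Within that list Agr2 and Fcgbp fell, at log2 fold changes of -3.00 and -2.19, whereas Clca1 rose 5.22-fold. Tuft and endocrine genes summed to 0.206 to 0.468 CPM in control and 0.789 to 1.10 CPM after Folfiri, and Pou2f3, which was tested through its Folfiri samples only, rose at a log2 fold change of 1.07. The sums for immune genes (21.3 to 26.0 and 21.4 to 22.4 CPM) and for fibroblast and endothelial genes (73.6 to 126 and 67.4 to 78.3 CPM) came mostly from Cd68 and Cdh5. At low counts, the immune gene Ptprc (13, 9 and 7 in control, 33, 35 and 31 after Folfiri) and the fibroblast genes Pdgfra (11, 7 and 10, then 40, 31 and 36) and Dcn (2, 0 and 0, then 19, 26 and 20) rose, Dcn having reached the filter's minimum in the Folfiri samples only, and Col1a1 (17, 26 and 17, then 11, 9 and 8) fell. The part of these markers in the members' results was not tested. In bulk RNA of this kind, fewer cells of a type and less RNA per cell cannot be told apart. Control replicate 1 stood farther from the other control samples than they did from each other, and so did Folfiri replicate 3 among the Folfiri samples. Values without a sample are given where they moved a result.

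Of the 7 members, 6 passed the filter and 5 were called after Folfiri. Car9 reached the filter's minimum in its control samples only, so its inclusion was tied to being lower after Folfiri, and it is not counted as support for a direction. Car9, Car12 and Car8 fell, Car2 and Car13 rose, Car1 was not called and Car4 was not tested. The share called, 83.3% of the 6, lay near the 79.1% of all tested genes. The groups did not overlap for 5 of the 6, as for 81.4% of all tested genes. All Folfiri samples lay above all control samples for 2 of them and for 41.6% of tested genes, and below for 3 of them and for 39.9%. The directions and sizes differed by member, from a log2 fold change of -2.96 for Car9 to 1.91 for Car13, against a median of 0.02 over all tested genes. The same 5 genes passed under all 12 alternative settings, which are other scalings, no filter, DESeq2, the replicate number as a block and each sample left out in turn.

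**Figure D1:**
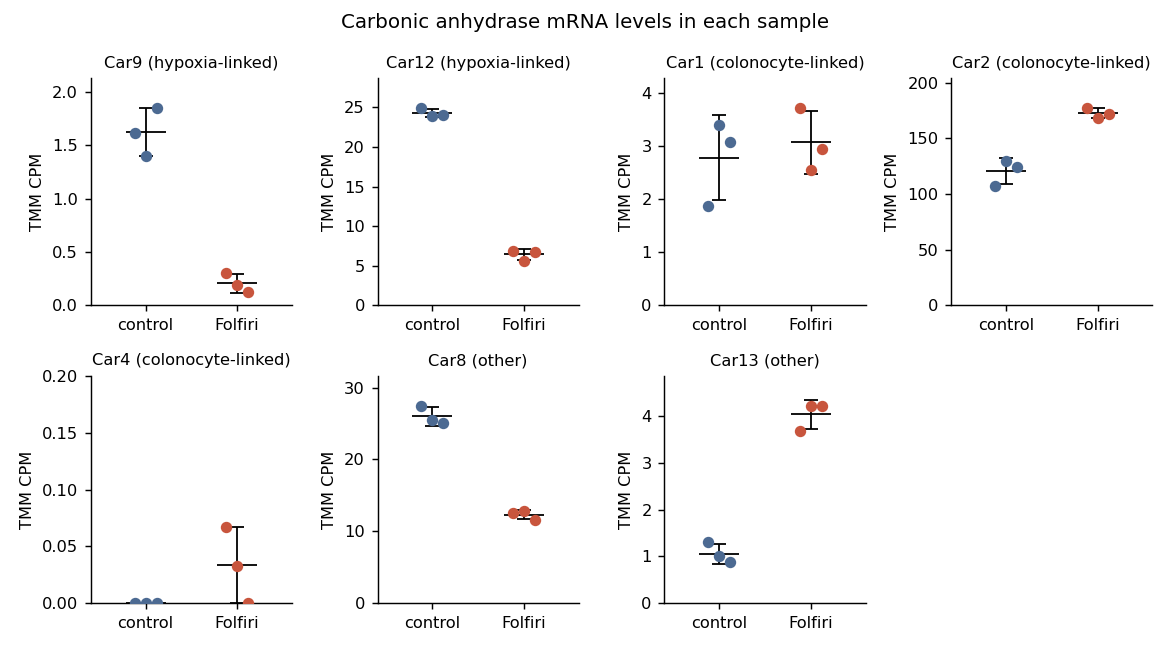
TMM-scaled CPM of each member in the 3 control and 3 Folfiri samples. Points are samples, the horizontal line is the mean and the bar the SD, and each panel has its own scale from 0. Car9, Car12 and Car8 lay lower in every Folfiri sample, Car2 and Car13 higher, Car1 overlapped, and Car4 had at most 2 counts in any sample.

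Car9, the hypoxia-linked membrane enzyme, gave 45, 35 and 36 counts in control replicates 1, 2 and 3 and 9, 6 and 4 counts in the Folfiri replicates. Every Folfiri sample lay below every control sample. The mean was 1.62 ± 0.226 CPM in control and 0.206 ± 0.0908 CPM after Folfiri (SD, n = 3 per group), 7.90-fold lower. On the log2 scale the change was -2.96 (SE 0.31, 95% interval -3.65 to -2.28, edgeR's adjusted p = 6.63e-06). With no filter the change was -2.99 (edgeR's adjusted p = 1.95e-10). The interval was the widest of the called members, and the fits that left out 1 sample gave -3.33 to -2.68. An antisense gene that was not in the count table shares 214 of the 2304 exonic bases of Car9, and the library kit did not mark strand, so reads from that stretch cannot be assigned to either gene.

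Car12, the other hypoxia-linked membrane enzyme, was more abundant in reads. Its counts were 692, 599 and 467 in control samples and 204, 175 and 223 in Folfiri samples. The control samples lay close together at 24.9, 24.0 and 24.0 CPM, and the Folfiri samples at 6.84, 5.65 and 6.77 CPM were all lower. Folfiri samples averaged 6.42 ± 0.668 CPM and control samples 24.3 ± 0.540 CPM (SD, n = 3 per group), 3.79-fold apart. On the log2 scale Car12 changed by -1.92 (SE 0.11, 95% interval -2.15 to -1.69, edgeR's adjusted p = 7.43e-08). The point estimate for Car9 was lower than that for Car12 by 1.04 on the log2 scale. As Car9 is not counted as support for a direction, that of the hypoxia-linked members rests on Car12. Within single libraries, where no scaling enters, control samples held 6.50, 5.84 and 7.71 Car9 reads per 100 Car12 reads, and Folfiri samples 4.41, 3.43 and 1.79.

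Car2, the cytosolic colonocyte-linked enzyme and the most abundant member, gave 2979, 3244 and 2418 counts in control samples and 5285, 5213 and 5678 counts in Folfiri samples. In scaled units the samples were at 107, 129.7 and 124 CPM in control and at 177, 168 and 172 CPM after Folfiri, without overlap. The mean of 173 ± 4.50 CPM after Folfiri was 1.43-fold above the 120.4 ± 11.7 CPM of control (SD, n = 3 per group). The log2 fold change was 0.52 (SE 0.08, 95% interval 0.34 to 0.70, adjusted p = 0.000147, edgeR). Total counts as the only scaling gave 0.80 instead, and the call held under each scaling.

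Car1, cytosolic and known from both colonocytes and red cells, gave 52, 85 and 60 counts in control samples and 111, 79 and 97 counts in Folfiri samples. The scaled levels were 1.87, 3.40 and 3.09 CPM in control and 3.72, 2.55 and 2.94 CPM after Folfiri, and the groups overlapped. The log2 fold change of 0.15 (SE 0.23, adjusted p = 0.558, edgeR) had a 95% interval from -0.36 to 0.67, and differences within that range are not excluded. It was at 0.43 with total counts as the only scaling (adjusted p = 0.105, edgeR). Its sign depended on single samples, with -0.087 without control replicate 1 and -0.0037 without Folfiri replicate 1.

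Car4, the apical colonocyte enzyme, had no count in any control sample and 2, 1 and 0 counts in the Folfiri samples. A count of 0 allows up to 3 counts, which is 0.108 to 0.154 CPM in the control libraries, so both groups were at or under the floor and no fold is given. Of the 3 colonocyte-linked members, 1 rose, 1 was not called and 1 was not tested, against 79.1% of all tested genes called and 40.3% higher.

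Because red cells also hold Car1 and Car2, erythroid markers were examined. Of 6 in the table, Hbb-bt had at most 1 count in any sample and Hba-a1 at most 6, whereas Alas2 reached 13 and Klf1 16 counts. The summed level was 0.640 to 0.792 CPM in control and 0.775 to 1.07 CPM in Folfiri samples. Alas2, the erythroid heme synthesis enzyme and the tested marker of the list, was not called (log2 fold change 0.17, adjusted p = 0.669, edgeR).

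Car8, the member without the first histidine codon, gave 763, 637 and 487 counts in control samples and 375, 395 and 382 counts in Folfiri samples. The scaled levels were 27.5, 25.5 and 25.04 CPM in control and 12.6, 12.7 and 11.6 CPM after Folfiri, with no overlap. Its mean fell 2.11-fold, with 26.0 ± 1.30 CPM in control and 12.3 ± 0.625 CPM after Folfiri (SD, n = 3 per group). The log2 change was -1.08 (SE 0.09, 95% interval -1.28 to -0.88, edgeR's adjusted p = 1.27e-06).

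Car13, a cytosolic enzyme, moved in the opposite direction. It gave 36, 25 and 17 counts in control samples and 110, 131 and 139 counts in Folfiri samples, with every Folfiri sample above every control sample. Its mean rose 3.83-fold, with 1.06 ± 0.217 CPM in control and 4.04 ± 0.308 CPM after Folfiri (SD, n = 3 per group). The log2 change was 1.91 (SE 0.19, 95% interval 1.50 to 2.32, edgeR's adjusted p = 4.18e-06). The 3 expressed genes of the chromosome 3 cluster thus did not change alike, at log2 fold changes of 1.91 for Car13, 0.15 for Car1 and 0.52 for Car2. Their neighbour Car3, a cytosolic enzyme best known from muscle, had no count in control samples and 0, 3 and 5 counts after Folfiri, and was not tested.

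**Figure D2:**
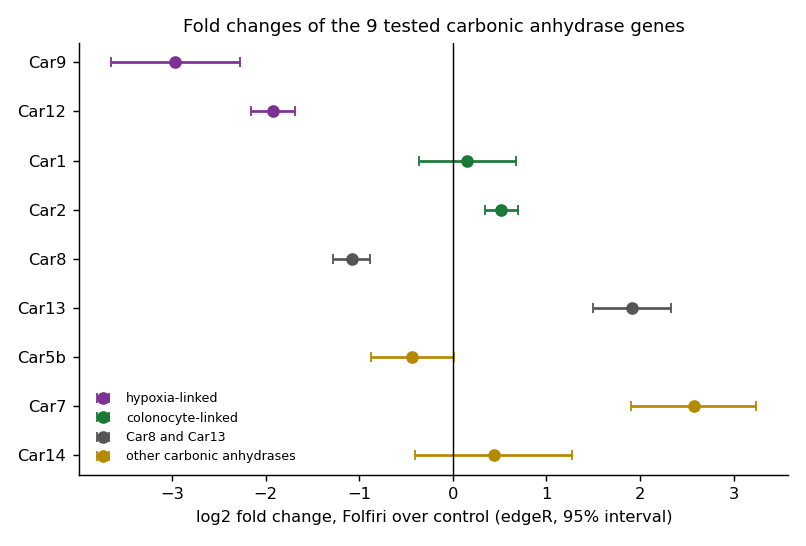
Log2 fold changes of Folfiri over control for the 9 carbonic anhydrase genes that were tested, with 95% intervals from edgeR. The intervals of Car9, Car12 and Car8 lie below 0 and those of Car2, Car13 and Car7 above 0, whereas Car1, Car5b and Car14 span it.

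Among the 9 other carbonic anhydrase genes, 3 were tested and 1 was called, against 79.1% of all tested genes. Car7, a cytosolic enzyme, gave 10, 7 and 3 counts in control samples and 49, 43 and 64 counts after Folfiri and rose 6.26-fold. Its log2 change was 2.57 (SE 0.30, edgeR's adjusted p = 1.67e-05), and 2.54 with no filter. Car7 reached the filter's minimum in the Folfiri samples only, so it was tested because it was high there. Car5b, a mitochondrial enzyme, had 55, 67 and 63 counts in control and 60, 58 and 62 counts after Folfiri, and its log2 change was -0.43 (SE 0.20, edgeR adjusted p = 0.0673). It passed the threshold without control replicate 1 (log2 fold change -0.61, adjusted p = 0.00507, edgeR), and was at -0.28 (0.238) without control replicate 3 and at -0.16 (0.459) with total counts as the only scaling. Car14, a membrane enzyme, was not called (0.44, SE 0.38, adjusted p = 0.304, edgeR). It was at 0.13 without control replicate 1, 0.81 without control replicate 2, 0.21 without Folfiri replicate 2 and 0.71 with total counts as the only scaling, and 445 of its 2543 exonic bases lie opposite Aph1a. Car3, Car5a, Car6, Car10, Car11 and Car15 had at most 7 counts in any sample.

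Levels of different genes were compared per kilobase of exon. In control samples Car2 stood at 49.7 ± 4.84 CPM per kilobase, followed by Car8 at 6.75 ± 0.337, Car12 at 3.20 ± 0.0711, Car1 at 2.23 ± 0.646, Car9 at 0.705 ± 0.0980 and Car13 at 0.460 ± 0.0943, with Car4 at 0 (SD, n = 3 each). After Folfiri the order was Car2 at 71.3 ± 1.86, Car8 at 3.19 ± 0.162, Car1 at 2.46 ± 0.478, Car13 at 1.76 ± 0.134, Car12 at 0.845 ± 0.0879, Car9 at 0.0892 ± 0.0394 and Car4 at 0.0168 ± 0.0171 CPM per kilobase. Car12 was the gene that lost most places in this order and Car13 overtook both hypoxia-linked genes. The place of Car12 depended on the length used. By its longest transcript, 3716 bases in place of 7597 exonic bases, it was at 6.54 CPM per kilobase in control samples, within the range of Car8, and at 1.73 after Folfiri, within the range of Car13.

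As a share of the summed length-scaled level of all 16 genes, Car2 went from 77.7 ± 1.50% in control to 88.2 ± 0.273% in Folfiri samples (SD, n = 3 each). The share of Car8 went from 10.6 ± 1.40% to 3.96 ± 0.237%, that of Car12 from 5.03 ± 0.526% to 1.05 ± 0.0867% and that of Car9 from 1.11 ± 0.186% to 0.110 ± 0.0460%. Car13 made up 0.729 ± 0.209% in control and 2.18 ± 0.223% after Folfiri. The shares of Car2, Car8, Car9, Car12 and Car13 did not overlap between conditions, whereas those of Car1, 3.45 ± 0.768% and 3.04 ± 0.501%, did. The sum over the 16 genes was 64.0 ± 5.05 CPM per kilobase in control and 80.7 ± 2.33 after Folfiri, and most of it was Car2.

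**Figure D3:**
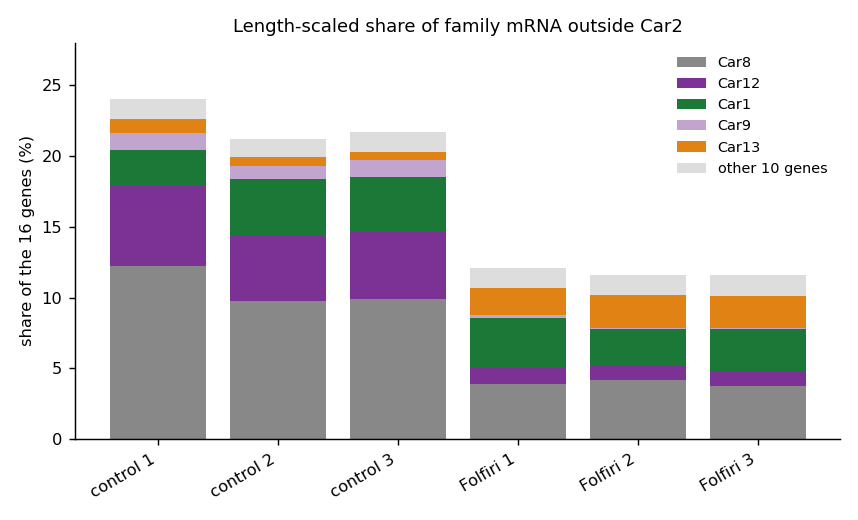
Share of the summed CPM per kilobase of the 16 carbonic anhydrase genes that falls outside Car2, in each sample, stacked by gene. Car8 and Car12 are the tallest segments in the control samples, and Car8 and Car1 in the Folfiri samples.

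The contrast between the hypoxia-linked and the colonocyte-linked members was also followed inside each library, where scaling between libraries plays no part. Control samples held 23.2, 18.5 and 19.3 Car12 reads per 100 Car2 reads, and Folfiri samples 3.86, 3.36 and 3.93. Car9 reads per 100 Car2 reads were 1.51, 1.08 and 1.49 in control and 0.170, 0.115 and 0.0704 after Folfiri. Both ratios were lower in every Folfiri library than in any control library. As Car9 is not counted as support for a direction, this contrast rests on Car12 and Car2.

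Relative to Car2, Car8 went from 25.6, 19.6 and 20.1 to 7.10, 7.58 and 6.73 reads per 100, and Car13 from 1.21, 0.771 and 0.703 to 2.08, 2.51 and 2.45. Car1 relative to Car2 overlapped between the groups, at 1.75 to 2.62 in control and 1.52 to 2.10 after Folfiri. Thus Car13 was the member whose reads increased relative to Car2 in every Folfiri library, and Car8 moved in the direction of Car12.

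The mean log2 CPM (prior count 2) of Car9 and Car12 minus that of Car1, Car2 and Car4 was 1.40, 0.90 and 1.16 in control samples and -1.50, -1.54 and -1.54 in Folfiri samples. The difference between the group means was -2.68 (pooled SD within groups 0.177), and the control samples were spread more widely than the Folfiri samples. Car9, part of this difference, reached the filter's minimum in its control samples only, so the difference is not counted as support for a direction. A difference without Car9 was not computed. Because Car4 was near 0 throughout, its prior count set part of each level, and without Car4 the difference was -2.63. The difference was -3.08 with a prior count of 0.5 and -1.25 with the rlog values of DESeq2, so its size depended on the transformation.

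**Figure D4:**
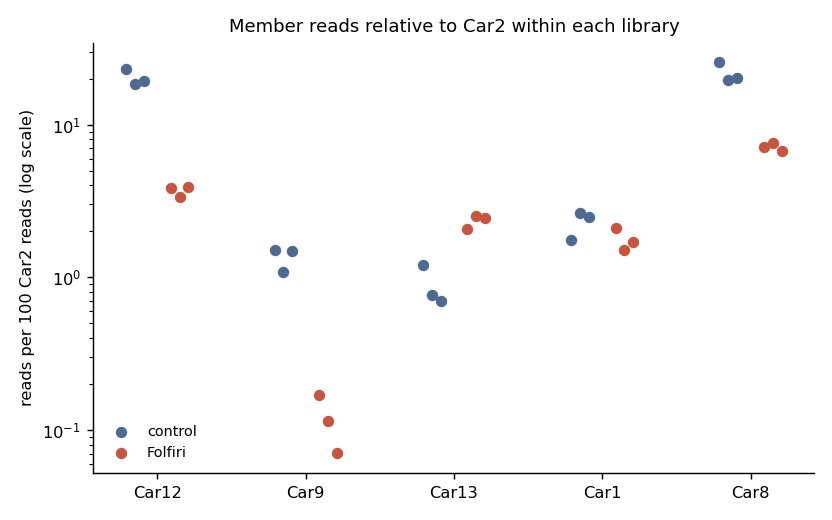
Reads of 5 members per 100 Car2 reads in the same library, on a log axis, with 1 point per sample. Car12, Car9 and Car8 lie lower and Car13 higher in all 3 Folfiri libraries, and Car1 overlaps.

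To set the hypoxia-linked members beside their pathway, HIF and its regulators were examined first. HIF is a dimer of an oxygen-labile alpha subunit and the stable beta subunit Arnt; hydroxylases of the Egln family mark the alpha subunit for Vhl, the recognition part of a ubiquitin ligase, and Hif1an hydroxylates it at another site. All 9 genes of this group were tested, 7 fell, Hif1an rose and Egln2 was not called, against 79.1% of all tested genes called and 38.8% lower. The median log2 fold change of the group was -1.08. The alpha subunit genes Hif1a, Epas1 and Hif3a had log2 fold changes of -0.51, -1.08 and -4.69 (SE 0.08, 0.09 and 0.13), and Arnt had -1.29. Among the regulators, Vhl was at -0.66, Egln1 at -1.89 and Egln3, itself a HIF target, at -3.48, whereas Hif1an was at 0.51 and Egln2 at -0.16 (adjusted p = 0.0848, edgeR). With total counts as the only scaling the sign of Egln2 turned, at 0.12, and Hif1a was at -0.23, Vhl at -0.38 and Hif1an at 0.78, all 3 still called. Hif1a also shares exonic bases with genes on both strands.

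All 20 HIF target genes of the list were tested and 19 fell, with a median log2 fold change of -2.56, against 38.8% of all tested genes lower and a median of 0.02. With total counts as the only scaling, 18 were called lower and 1 higher. Adm, the vasodilator peptide adrenomedullin, averaged 203 ± 57.4 CPM in control and 3.72 ± 0.424 CPM after Folfiri (SD, n = 3 per group), a change of -5.77 on the log2 scale. Ddit4, an inhibitor of mTORC1, fell by 4.30 on the log2 scale, Ndrg1, a stress-response gene, was at -4.29 and Vegfa, the angiogenic growth factor, at -3.80. Pfkfb4, a regulator of glycolysis, was the gene that was not called, at 0.08 (SE 0.10, adjusted p = 0.471, edgeR). Car9 at -2.96 lay beyond the median of this list and Car12 at -1.92 short of it.

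Promoter sequence was available for Car9, Car12 and Car4, as RefSeq windows on GRCm38.p6 from 250 bases before to 50 bases after each start. The core of the HIF-binding motif, ACGTG, was searched on both strands, where it reads CACGT on the other; the latter can also be part of the E-box CACGTG. It occurred in 19.6% of all 32851 windows, and 21.8% of the 27025 genes had it in at least 1 window. By the same count per gene, it occurred in 2 of 3 members, 14 of 18 HIF targets, 4 of 20 colonocyte genes and 3 of 16 acid-base transport genes. The matches of both members are shown beside those of Ddit4 and of 1 of the Vegfa windows, on the strand of the gene, with the motif in capitals. Vegfa had another window farther upstream (chr17:46032328-46032627), at the start of its GENCODE model, which held no match. The Vegfa window shown lies inside that model.
Car9 (chr4:43506996-43507025, + strand): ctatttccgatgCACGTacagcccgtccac
Car4 (chr11:84957744-84957773, + strand): ggagccgactccCACGTctagccgtccggg
Ddit4 (chr10:59951940-59951969, - strand): agaacgttgcgaACGTGcgcccggtgccta
Vegfa (chr17:46025357-46025386, - strand): ggagtgcgtgccCACGTcagagagcaacat
In Car9 the motif lay 18 to 14 bases before the RefSeq start, inside the first exon of a GENCODE model that begins upstream. The match of Car4, which was not detectable in control samples, lay at bases 2 to 6 from its RefSeq start, upstream of the start of its GENCODE model. None of these matches was part of an E-box.

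Car12 and Adm had no match in their windows, although both fell. The 250 bases upstream of Car12 are given to show the window that lacks these letters.
Car12 (chr9:66713436-66713685, + strand): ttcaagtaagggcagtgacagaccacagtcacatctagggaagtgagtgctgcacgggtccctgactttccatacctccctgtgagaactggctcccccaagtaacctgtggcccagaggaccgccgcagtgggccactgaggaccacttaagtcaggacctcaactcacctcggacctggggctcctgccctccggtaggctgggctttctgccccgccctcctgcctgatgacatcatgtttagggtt
A match or its absence describes these letters only and says nothing about binding.

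**Figure D5:**
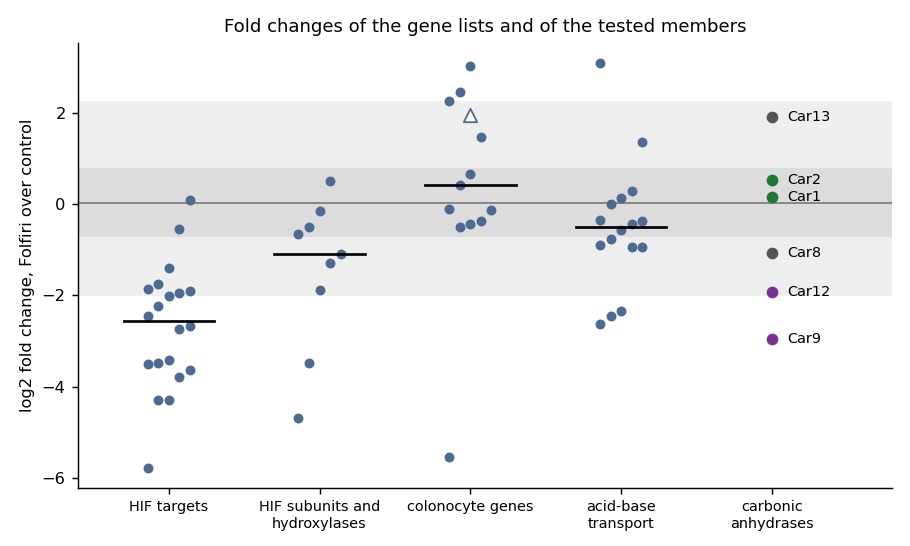
Log2 fold changes of Folfiri over control for the tested genes of each list and the 6 tested members. Points are genes, black lines list medians, the grey line the median of all tested genes, and the dark and light bands hold the middle 50% and 90% of all tested genes; the open triangle is the lower bound for Cyp2c55, which had no control count. The HIF target median lies at -2.56 and the colonocyte median at 0.42. The latter includes Aqp8, Clca4a and Cyp2c55, which reached the filter's minimum in the Folfiri samples only.

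The colonocyte genes, the background for Car1, Car2 and Car4, were called in both directions. Of 21 genes, 13 were tested, 7 rose and 4 fell, against 40.3% of all tested genes higher and 38.8% lower. Of the 7, Aqp8, Clca4a and Cyp2c55 reached the filter's minimum in the Folfiri samples only, so their direction was tied to the filter. With total counts as the only scaling, 7 were called higher and 1 lower. The list had a median log2 fold change of 0.42, a value of the order of the shift between scalings. That median includes Aqp8, Clca4a and Cyp2c55, so no direction of the list is read from it. Hpgd, which degrades prostaglandins, averaged 3.22 ± 0.167 CPM in control and 15.4 ± 2.39 CPM after Folfiri (SD, n = 3 per group), a change of 2.26 on the log2 scale. Ceacam1, an adhesion molecule, rose by 0.66 and Mall, a membrane protein, by 0.42 on the log2 scale, the latter by 0.70 with total counts as the only scaling. Selenbp1, a methanethiol oxidase with a close paralog that could share its reads, fell by 5.53, and the brush border cadherins Cdhr5 and Cdhr2 fell by 0.50 and 0.37, which with total counts as the only scaling became -0.22 and -0.094 and were no longer called. Several classical colonocyte genes were detected at low counts only. Aqp8, a water channel, had 4, 1 and 0 counts in control and 21, 14 and 21 counts after Folfiri, and Cyp2c55, a cytochrome P450, had none in control and 14, 18 and 14 after Folfiri, at least 3.86-fold higher against a floor of 3 counts per library. Krt20 and Vil1 were tested and not called, at log2 fold changes of -0.13 and -0.11 (adjusted p = 0.562 and 0.183, edgeR). Aqp8, Clca4a, Cyp2c55, Krt20 and Vil1 were named after their values were seen. Slc26a3, the chloride-bicarbonate exchanger that works beside carbonic anhydrases at the colonocyte surface, reached at most 7 counts and was not tested.

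Carbonic anhydrases supply bicarbonate and protons to transporters, so 22 acid-base transport genes were examined as their partners. Of these, 16 were tested, 2 rose and 10 fell, against 40.3% of all tested genes higher and 38.8% lower. The list's median log2 fold change was -0.51. With total counts as the only scaling, 4 were called higher and 8 lower. The split was 4 and 9 of 17 tested without control replicate 1, 3 and 11 without control replicate 2, 3 and 10 without control replicate 3, 3 and 9 without Folfiri replicate 1, and 4 and 10 of 21 with DESeq2. Slc4a2, a chloride-bicarbonate exchanger, averaged 50.8 ± 3.27 CPM in control and 131 ± 4.95 CPM after Folfiri (SD, n = 3 per group), a change of 1.37 on the log2 scale, and 1141 of its exonic bases lie opposite Fastk. The other gene that rose was Slc4a3, an anion exchanger at 7, 1 and 4 counts in control and 46, 47 and 43 counts after Folfiri, which reached the filter's minimum in the Folfiri samples only and was chosen after its values were seen. Slc16a3, a lactate and proton exporter that is also on the HIF target list, fell by 2.45 on the log2 scale, and its chaperone Bsg by 2.34. The transporters Slc4a11 and Slc4a4, the latter a sodium-bicarbonate cotransporter, fell by 2.62 and 0.94. The list's 12 calls of 16 stood near the 79.1% of all tested genes.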

How the data were processed

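RNA of 6 MTO54 cultures was purified, selected for poly(A) and made into libraries with a kit that does not mark strand. The authors aligned the reads with STAR 2.5.2, as the submitters' processing notes also name it, to the mouse genome (GRCm38, mm10) with GENCODE vM25 annotation, made gene-level counts with Rsubread and deposited them as raw counts. The strand setting and the treatment of reads with several positions are not given in the sources used here. Groups came from the labels.

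Of the 24190 identifiers, 24124 matched a symbol and position in GENCODE vM21, also built on GRCm38. In R 4.3.3, edgeR 4.0.16 was run on all genes with its filter at default settings (minimum count 10, minimum total 15), TMM scaling and the two-sided quasi-likelihood test. P values were adjusted by Benjamini-Hochberg over the 14692 tested genes, with a threshold of 0.05, and 95% intervals came from the same fit. The procedure was tested on simulated data. Depths ranged from 22103591 to 30098210 counts. Limits from a count of 0 (3 counts) cover counting error only. Levels per kilobase used the union of exons. Coding sequences were aligned by their translation with MAFFT 7.526, and promoter windows and their coordinates are those of RefSeq.

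The members and lists were chosen with earlier results of these data known. Named were all carbonic anhydrases, all genes of the HIF system, and up to 4 genes per direction of each other list with the largest change among called genes without overlap and a mean of at least 5 CPM. For each tested member, the 3 genes with the most similar profile were also named. The alternatives tried were scaling by upper quartile, by total counts only or by DESeq2 size factors, no filter, the Wald test of DESeq2 1.42.0, the replicate number as a block and each sample left out in turn. Leaving Car4 out of the contrast was added after seeing the data. Values of some listed genes are not reported here.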

Additional observations from a re-analysis of the deposited data

How the results depend on the processing

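Of 396 values of 33 named genes with a fold change, recomputed under 12 alternatives each, 388 kept their direction and their side of the threshold. Of the 7 members, the 5 called ones remained called throughout and Car1 in none. The log2 fold change of Car1 ranged from -0.087 to 0.33 when 1 sample was left out, at -0.087 without control replicate 1 and -0.0037 without Folfiri replicate 1, and with total counts only Egln2 was at 0.12. Cdhr5 and Cdhr2 lost their calls with total counts only. Without control replicate 1, Car5b and Egln2 gained one (adjusted p = 0.00507 and 0.0132, edgeR), as did Car5b with no filter (0.0484). The number of other carbonic anhydrases called, 1, became 3 of 9 with no filter and was 1 to 2 in the fits that left out a sample, the 2 being the fit without control replicate 1. The difference between hypoxia-linked and colonocyte-linked members, -2.68, was -3.08 with a prior count of 0.5 and -1.25 with rlog values, and -2.81 to -2.55 with 1 sample left out. HIF target calls numbered 19 under each alternative, but with total counts only they were 1 higher and 18 lower. Colonocyte calls ranged from 8 to 15 and acid-base calls from 11 to 16, and with total counts only these were 7 higher and 1 lower, and 4 higher and 8 lower. Per kilobase of the longest transcript, Car2 stood at 67.4 CPM in control and 96.5 after Folfiri.

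Same-numbered control and Folfiri samples did not deviate together (correlations 0.03, -0.12 and 0.04), so they were not treated as pairs. With the replicate number as a block, 11499 genes were called in place of 11623, and the members called were again 5, the other carbonic anhydrases 1, the HIF targets 19, the colonocyte genes 11 and the acid-base transport genes 13. Car4 was at or under 3 counts in every sample, so no change could be measured, and the change of Car9 rests on 4 to 45 counts per sample.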

Other observations

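Genes whose profile over the 6 samples was most like that of each tested member, among those with a mean of at least 5 CPM, were found by the root mean square difference of centred log2 CPM. The points share libraries and groups. For Car9 these were Dync2h1 (0.107), a dynein motor of cilia, Man1c1 (0.133), a mannosidase of the Golgi, and Arrb1 (0.189), a beta-arrestin, and 4 genes in all lay within 0.2. For Car12 they were Arsg (0.0470), a lysosomal sulfatase, Ggt1 (0.0570), which cleaves glutathione outside the cell, and Arfgap3 (0.0587), with 298 genes within 0.2.

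Car1, whose groups overlapped, was closest to Troap (0.153), Cdkn1c (0.176) and Nrbp2 (0.179), with 19 genes within 0.2. Car2 was closest to Ythdc1 (0.0360), a reader of methylated RNA, S100a11 (0.0370) and Pip4k2c (0.0397), with 1879 within 0.2. Car8 was closest to Anapc1 (0.0267), a subunit of the anaphase-promoting complex, Itsn1 (0.0327) and Kat2b (0.0331), with 1251 within 0.2. Car13 was closest to Gcsh (0.0401), a protein of the glycine cleavage system, AW146154 (0.0440) and Nmd3 (0.0448), with 326 within 0.2.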
